A study of Mus musculus with 10 samples.

Results

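A set of 10 genes of the muscle contractile apparatus were followed through reprogramming of mouse embryonic fibroblasts (MEFs) with and without FoxO6. They were chosen by symbol, and all 10 were found among the 50600 genes of the deposited libraries. The skeletal group holds Acta1 (skeletal alpha actin), Actc1 (cardiac alpha actin, also made in fetal skeletal muscle), Myh3 (embryonic myosin heavy chain) and Myh8 (perinatal myosin heavy chain). The smooth muscle group holds Acta2 (smooth muscle alpha actin), Actg2 (smooth muscle gamma actin), Tagln (transgelin, an actin-binding protein), Cnn1 (calponin) and Myl9 (a regulatory myosin light chain). Des (desmin, the intermediate filament protein of muscle) belongs to both kinds and was counted in neither sum. The study asked how FoxO6 acts during induction of pluripotency. MEFs of the strain CBA/CaJ X C57BL/6J from E13.5 embryos received Oct4, Klf4 and Sox2 (OKS) by retrovirus. By the paper's methods, MEFs were kept in medium with serum, and each arm was put in iCD1 medium after infection. The medium of the day 0 cells is not stated in those methods. A change of medium therefore cannot be told apart from the step between days 0 and 1. The control arm, labelled DR, also received the red fluorescent protein DsRed, and the other arm also received FoxO6, a forkhead transcription factor. One library of bulk RNA-seq was made per arm at days 0, 1, 3, 5 and 7, which gives 10 libraries, and whether the libraries of an arm share 1 culture is not stated. The name MEF covers a mixed embryonic population, and these libraries cannot tell fewer cells of a type from less RNA per cell.

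Contraction rests on myosin filaments that pull on actin filaments. Striated muscle uses Acta1, Actc1 and a series of myosin heavy chains that replace each other from embryo to adult, under regulators of the MyoD family. Smooth muscle and the myofibroblast, the contractile fibroblast of wounds and of cultured explants, use Acta2, Actg2, Tagln, Cnn1 and Myl9. The serum response factor SRF and its actin-sensing cofactors switch on genes of both kinds by binding the CArG box, and MEFs spread on plastic are known for stress fibres rich in Acta2.

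The stretches that hold a CArG box are shown first, since genes of both groups have one. RefSeq promoters (GRCm38.p6) were found for 8 of the 10 members, all but Tagln and Actg2, and the 250 bases before each start were searched. The strict box has only A or T in its core, and the looser form allows 1 G or C there. Both forms read alike on the 2 strands, and every strict box is also a looser one. Looser boxes were present in 4 of the 8 members (Acta1, Actc1, Acta2 and Myl9) and strict ones in 3 (Acta1, Actc1 and Myl9), against 8.59% and 1.47% of all 32851 promoters in the reference. In the stretches below, read from the coding strand, the capitals mark the boxes of the looser form. The Acta1 stretch lies at chr8:123894819-123895000 on the minus strand and has its boxes 205, 154 and 73 bases before the start, the last of them strict. The Actc1 stretch lies at chr2:114052893-114053070 on the minus strand, with boxes 175, 138, 87 and 47 bases before the start, of which the last is strict. The Myl9 stretch lies at chr2:156775283-156775394 on the plus strand, with boxes 161 and 99 bases before the start, the first of them strict. The Acta2 boxes begin 84 and 34 bases before the RefSeq start, inside the first exon of an annotated GENCODE M21 transcript, and of them the first is shown with 10 bases on each side, at chr19:34255438-34255467 on the minus strand.
Acta1: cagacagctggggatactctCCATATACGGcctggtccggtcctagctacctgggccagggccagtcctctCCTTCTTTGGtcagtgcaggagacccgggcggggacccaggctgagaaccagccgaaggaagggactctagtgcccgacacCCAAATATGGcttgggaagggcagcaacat
Actc1: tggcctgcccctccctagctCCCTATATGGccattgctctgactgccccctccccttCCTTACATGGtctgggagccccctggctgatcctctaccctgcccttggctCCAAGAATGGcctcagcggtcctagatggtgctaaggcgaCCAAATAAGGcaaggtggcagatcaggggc
Myl9: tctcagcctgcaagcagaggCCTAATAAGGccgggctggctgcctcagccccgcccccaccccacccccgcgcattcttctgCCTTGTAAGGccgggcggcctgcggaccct
Acta2: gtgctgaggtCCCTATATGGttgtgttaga
The forkhead motif GTAAACA, searched on either strand, was in none of the 8 windows and in 3.17% of all promoters. A match is a description of the letters, and these windows hold only the bases next to the start.

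Library totals were 1208379 to 2225750 expected counts (median 1601151), so a member at a few TPM (a level per transcript length that sums to the same total in each library) rests on a handful of reads. Foxo6 itself, the check of the arms, was at 0.61 to 2.29 TPM in the 5 libraries of OKS + DsRed and at 762.11 to 1356 TPM in those of OKS + FoxO6, day 0 included. The regulators that define skeletal muscle cells were nearly unread: Myf5, Myf6 and Myog were listed at 0 in all 10 libraries and Myod1 at 0 in all but the 2 libraries of day 7, at 0.57 and 0.62 TPM. No value below has a replicate. Ratios of 2 libraries are given on library-scaled counts (CPM, TMM normalization) with a 95% Clopper-Pearson interval, which covers counting error only.

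At day 0 the cells carried the smooth muscle programme at a high level and the skeletal genes at a low one, and both arms lost nearly all of the former by day 7. In OKS + DsRed the 5 smooth muscle genes summed to 5465 TPM at day 0 and then to 560, 112, 94.99 and 70.7 TPM. In OKS + FoxO6 their sum started at 6075 TPM and then stood at 406, 139.5, 108 and 102 TPM. The 4 skeletal genes summed to 26.0, 5.72, 13.3, 3.59 and 7.24 TPM along the same days in OKS + DsRed. In OKS + FoxO6 they summed to 24.8, 16.6, 11.9 and 17.6 TPM on days 0 to 5 and to 253 TPM at day 7. The smooth muscle sum was thus the higher of the pair in 9 of the 10 libraries, and OKS + FoxO6 at day 7 was the exception. For OKS + DsRed, the log2 ratio of the skeletal over the smooth muscle sum went from -7.72 on the first day to -3.29 on the last. For OKS + FoxO6 it went from -7.93 to 1.31. Acta1 alone made 92.9% of the skeletal sum at that last point, and the ratio there was -1.28 without Acta1 and Acta2, the highest gene of each sum.

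**Figure D1:**
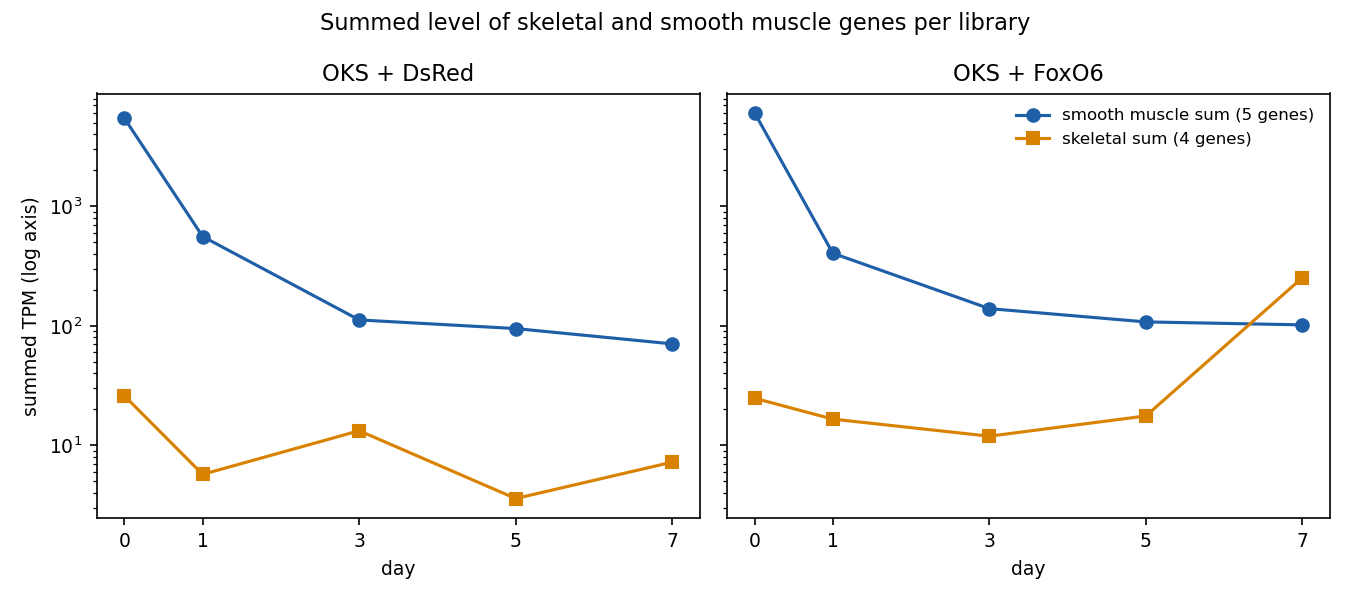
Summed TPM (log axis) of the 5 smooth muscle genes (circles) and the 4 skeletal genes (squares) by day, 1 library per point, OKS + DsRed on the left and OKS + FoxO6 on the right. The smooth muscle sum drops from 5465 and 6075 TPM at day 0 to 70.7 and 102 TPM at day 7, and the skeletal sum lies above it only in OKS + FoxO6 at day 7, at 253 TPM.

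Acta2 was the highest member at day 0. Over days 0, 1, 3, 5 and 7, OKS + DsRed had 3227, 304, 40.6, 41.6 and 29.3 TPM and OKS + FoxO6 had 3673, 232, 72.8, 60.3 and 58.4 TPM. Both arms had their highest value at day 0. OKS + FoxO6 was the lower arm at day 1 and the higher at days 0, 3, 5 and 7. Acta2 (chromosome 19, 34241090 to 34255590, minus strand, GENCODE M21 on GRCm38) was 12.0-fold lower at day 1 than at day 0 in OKS + DsRed (interval 10.8 to 13.4) and 16.4-fold lower in OKS + FoxO6 (14.7 to 18.4). By day 7 it was 119-fold lower in OKS + DsRed (89.5 to 160.5) and 55.7-fold lower in OKS + FoxO6 (45.2 to 69.3).

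Tagln (chromosome 9, 45929619 to 45936058, minus strand) reached lower levels. OKS + DsRed had 1205, 95.1, 3.54, 1.90 and 4.02 TPM of it over the days, and OKS + FoxO6 had 1307, 97.7, 13.04, 10.1 and 2.61 TPM. The arms lay close together at days 0 and 1, OKS + FoxO6 was the higher at days 3 and 5, and at day 7 both had few reads (6 and 3.59 expected counts). From day 3 on its values rest on 2 to 19.5 expected counts. Pcsk7, a proprotein convertase gene on the opposite strand that overlaps it, had 50 to 96.6 counts in the same libraries, and 58.4% of the 50-base stretches of Tagln transcripts also occur in other genes, mostly the opposite-strand model Gm48529 (0 to 15.6 counts). Whether counting used the strand is not given in the sources used here, and reads of these genes cannot be told apart without it.

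Actg2 (chromosome 6, 83512905 to 83536265, minus strand) kept more of its level. OKS + DsRed had 502, 116, 61.0, 43.6 and 35.5 TPM over the days, and OKS + FoxO6 had 503, 52.6, 44.7, 31.1 and 37.9 TPM. As ratios of TPM, Acta2 started 6.43-fold above Actg2 in OKS + DsRed and 7.31-fold above it in OKS + FoxO6. In OKS + DsRed this lead was gone from day 3 on: Acta2 was at 0.666, 0.953 and 0.826 times the TPM of Actg2 at days 3, 5 and 7, from 49 to 51 reads of Acta2 and 35 to 54 of Actg2. The 95% counting intervals of the ratio at days 5 and 7, 0.607 to 1.51 and 0.525 to 1.31, include equal levels, and at day 3 the interval was 0.445 to 0.995. In OKS + FoxO6 the ratio was 1.63, 1.94 and 1.54 on these days, with 1.06 as the lowest bound of its intervals.

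Myl9 and Cnn1 followed the same course at a lower level. Myl9 (chromosome 2, 156775420 to 156781658, plus strand) was at 463, 35.9, 2.57, 7.85 and 1.93 TPM in OKS + DsRed and at 550, 20.5, 6.74, 6.48 and 2.09 TPM in OKS + FoxO6, with at most 7 reads from day 3 on. Cnn1 (chromosome 9, 22099216 to 22109630, plus strand) was at 67.3, 8.45, 4.43, 0 and 0 TPM in OKS + DsRed and at 41.3, 2.92, 2.21, 0 and 1.02 TPM in OKS + FoxO6, with at most 5 reads from day 1 on. Both genes were highest at day 0 in each arm, and the interval of the ratio between the arms included 1 on every day on which it could be computed. In OKS + DsRed no read of Cnn1 was left at day 7. With that 0 set to 3 counts, Cnn1 was 28.6-fold lower than at day 0, a value without an interval. Des (chromosome 1, 75360329 to 75368579, plus strand) took the course of the smooth muscle genes, at 22.4, 4.90, 0.46, 0 and 1.33 TPM in OKS + DsRed and 19.3, 6.56, 2.08, 3.71 and 0.38 TPM in OKS + FoxO6.

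**Figure D2:**
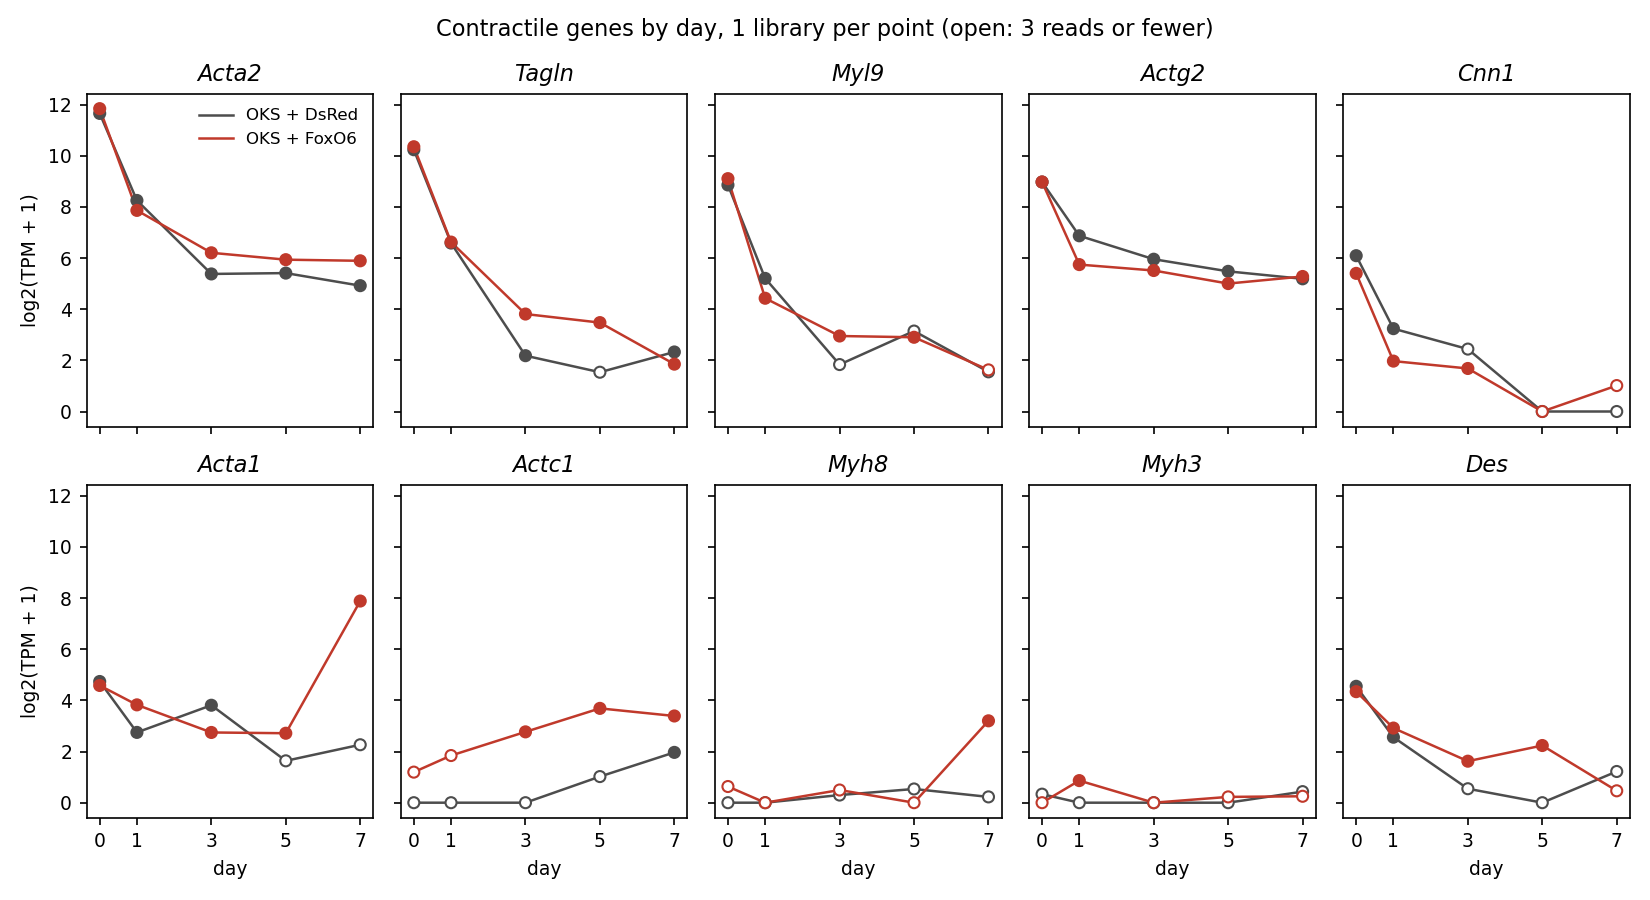
Level of each of the 10 genes, in log2(TPM + 1), against day, with OKS + DsRed in grey and OKS + FoxO6 in red. Each point is 1 library and open points rest on 3 reads or fewer. Acta2, Tagln, Myl9, Actg2, Cnn1 and Des are highest at day 0 in both arms, Acta1 and Myh8 are highest in OKS + FoxO6 at day 7, and Actc1 is higher in OKS + FoxO6 on all 5 days.

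The change along the days was tested with the quasi-likelihood test of edgeR (rounded expected counts, arm and day as factors) as day 7 against day 0 over both arms (2 libraries against 2). Only Acta2, Actg2 and Tagln passed the filter on low counts, and all 3 fell, against 9.96% of the 11028 genes tested that were called lower. Tagln had at most 19.5 expected counts from day 3 on and passed mainly through days 0 and 1, so the filter favoured a fall for it. The log2 fold change was -8.42 for Tagln (standard error 0.41, adjusted p = 1.27e-06), -6.29 for Acta2 (0.36, 3.14e-06) and -3.86 for Actg2 (0.31, 1.68e-05). Much of the fall was already there after 1 day. Day 1 against day 0, a comparison added after the values were seen, gave -3.83 for Tagln (adjusted p = 0.00023), -3.78 for Acta2 (0.000307) and -2.79 for Actg2 (0.000913), where 1.92% of all genes were called lower. A filter that keeps genes with 10 counts in any library, also added after the values were seen, brought in every member but Myh3. Myl9, Cnn1 and Des then fell too, with -7.85, -6.02 and -5.15 on the log2 scale at day 7 (adjusted p = 1.3e-06, 0.000381 and 0.000865). Cnn1 passed that filter through its day 0 libraries alone and so had to be lower later, while Myl9 and Des passed it through days 0 and 1. Leaving out 1 library moved the value of Cnn1 from -4.96 to -9.21, the latter without OKS + FoxO6 day 7, and that of Des from -4.48 to -5.82. Under it 6 of 9 members were called lower at day 7, against 9.53% of 13184 genes, and 5 of 9 at day 1, against 1.71%. Both counts include Cnn1, which at day 1 stood at -3.88 (adjusted p = 0.00916) and was also called with limma (-3.14, adjusted p = 0.04). The day 1 call of Cnn1 was lost whichever of the 4 libraries was left out at this filter, which leaves Acta2, Actg2, Tagln and Myl9. Des had an adjusted p of 0.0945 at day 1, and 0.00287 with no filter on low counts. Adjusted p-values with no filter can lie far from those of the main filter at like fold changes. For Acta2 at day 7 the edgeR fit with no filter gave -6.32 with an adjusted p of 5.8e-141. A call made with no filter alone therefore carries little weight. The fitted changes of Acta1, Actc1 and Myh8 at day 7 were 1.49, 3.43 and 3.11, with adjusted p = 0.371, 0.0732 and 0.164, and with no filter on low counts Acta1 was called (1.48, adjusted p = 0.0025). For Acta1 this value averages arms that went opposite ways, 12.4-fold lower at day 7 than at day 0 in OKS + DsRed (interval 3.75 to 64.6) and 9.43-fold higher in OKS + FoxO6. It was 3.12 without OKS + DsRed day 7 (adjusted p = 0.000438) and -3.46 without OKS + FoxO6 day 7 (0.035), so its direction depends on the library left out.

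Fibroblast markers moved in the same direction. Of the 9 listed, 7 fell between day 0 and day 7, with Postn (periostin) at -4.18, Thy1 at -4.09 and Col1a1 at -3.75 on the log2 scale, and none rose. Of all genes tested, 9.96% were called lower. Their summed level ranged from 1283 to 5405 TPM in OKS + DsRed and from 1780 to 5715 TPM in OKS + FoxO6, and no fibroblast marker was at 0 throughout an arm. Of 7 pericyte markers 4 could be tested, of which Pdgfrb and Cspg4 fell, and the list summed to 12.1 to 68.0 TPM over the libraries. The epithelial genes Cdh1, Epcam and Krt8 rose, by 5.82, 10.7 and 5.83, and their list went from 6.56 to 698 TPM in OKS + DsRed and from 1.81 to 148 TPM in OKS + FoxO6. The part of these other cell markers in the fall of the smooth muscle genes was not tested.

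Among the skeletal genes, Acta1 (chromosome 8, 123891769 to 123894751, minus strand) was at 25.7, 5.72, 13.03, 2.11 and 3.81 TPM in OKS + DsRed, from 23, 6, 9, 2 and 3 reads. In OKS + FoxO6 it was at 23.0, 13.2, 5.71 and 5.57 TPM on days 0 to 5, from 35, 15, 4 and 5 reads, and at 236 TPM at day 7, from 238 expected counts. One library of the 10 thus stood apart, and the other 9 overlapped between the arms. In that library Acta1 was 9.43-fold above its own day 0 level (interval 6.6 to 13.9) and 94.7-fold above OKS + DsRed of the same day (32.0 to 462.3). Myh8 (chromosome 11, 67277124 to 67308634, plus strand) shared this pattern, with at most 3 reads in every other library and 24.8 expected counts, 8.20 TPM, in OKS + FoxO6 at day 7. Its ratio to OKS + DsRed, which had 1 read, was 29.6 (4.88 to 1225).

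Actc1 (chromosome 2, 114047282 to 114053548, minus strand) was listed at 0 in OKS + DsRed at days 0, 1 and 3 and was at 1.03 and 2.91 TPM at days 5 and 7. In OKS + FoxO6 it was at 1.29, 2.59, 5.82, 11.9 and 9.49 TPM, from 2, 3, 8, 17 and 12 reads. OKS + FoxO6 was the higher on all 5 days, although its days 0 and 1 overlapped the last day of OKS + DsRed. With the 0 of OKS + DsRed set to 3 counts, Actc1 was 1.96-fold higher in OKS + FoxO6 at day 3, a value without an interval. The ratio was 11.1 (1.73 to 462) at day 5, from 17 reads against 1, and 3.58 (1.08 to 15.2) at day 7. Myh3 (chromosome 11, 67078300 to 67102291, plus strand) was never seen above 4 reads and shows no pattern at this depth.

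Some measures moved with the library of OKS + FoxO6 at day 7. The 5 genes outside the members whose log2(TPM + 1) ran most like Acta1 over the 10 libraries, among 11491 genes whose TPM averaged at least 5, were Atp5l (Pearson r = 0.93), Tomm6 (0.904), Rps20 (0.901), Ccdc124 (0.9) and Pdcd2l (0.897). All 5 peaked in that library, yet Atp5l ranged only from 224 to 443 TPM over the libraries while Acta1 ranged from 2.11 to 236. The 1978 genes within 20% of the effective length of Acta1 differed at day 7 by a median of 0.04 in log2(TPM + 1), with OKS + FoxO6 taken minus OKS + DsRed, against -0.14 for all genes whose TPM averaged at least 1. Acta1 was at 5.62, and no other of the 1978 was as high. Gm20388, a gene model on the opposite strand that spans Acta1, had 161 expected counts in this library and 0 in the 4 other libraries of OKS + FoxO6, so within that arm it appeared together with the high Acta1 level. In OKS + DsRed it had 87.2, 40.0, 62.7, 0 and 87.7 counts over the days. The part of these in the Acta1 level was not tested.

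The genes most like Acta2 were of another kind: Cnn2 (calponin 2, r = 0.982), Srxn1 (0.979), Prss23 (0.979), Tnfrsf12a (0.979) and Actn1 (a nonmuscle alpha actinin, 0.977). Those most like Tagln were Htra1 (0.99), Bicc1 (0.99), Fkbp9 (0.984), Serpinf1 (0.984) and Fosl1 (0.981). Among the members, Acta2 had an r of 0.984 with Myl9, 0.979 with Tagln, 0.954 with Actg2, 0.928 with Cnn1 and 0.922 with Des, and of 0.276 with Acta1. These correlations describe the same 10 libraries, which share their days, and each gene named in this comparison with Acta2 or Tagln, other than Acta1, peaked in a day 0 library.

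The actins can be set against each other because TPM is per length. Together with Actb and Actg1, the cytoplasmic actins of all cells, the 4 muscle actins made up a pool of 6 genes. On the first day sampled the muscle actins held 37.0% of its TPM in OKS + DsRed and 43.2% in OKS + FoxO6. Most of it was Acta2 (31.8% and 37.8%), followed by Actg2 (4.94% and 5.17%). Their share was 9.06% and 8.53% after 1 day and 1.61% and 7.24% after 7 days. Within the last value, Acta1 took 4.998% and Acta2 took 1.24%, so the leading muscle actin of OKS + FoxO6 changed from Acta2 at day 0 to Acta1 at day 7. In OKS + DsRed at day 7, Actg2 (0.8002%) and Acta2 (0.661%) led and Acta1 held 0.0859%. Actb went from 2502 to 2496 TPM in OKS + DsRed and from 2283 to 2862 TPM in OKS + FoxO6.

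Next, OKS + FoxO6 was compared with OKS + DsRed. As a shift shared by the 5 days, fitted with edgeR with day as a factor, none of the 3 members tested passed (0 also at an unadjusted p under 0.05, 0 with DESeq2), against 13.9% of the 11028 genes. The log2 fold change was 0.33 for Acta2 (standard error 0.20, adjusted p = 0.312), -0.32 for Actg2 (0.20, 0.333) and 0.23 for Tagln (0.23, 0.583). With 10 counts in any library, Actc1 was the only one of 9 members called, higher in OKS + FoxO6 by 2.91 on the log2 scale (0.78, adjusted p = 0.0327), where 6.14% of 13184 genes were called higher. Actc1 passed that filter only through OKS + FoxO6, so it had to differ, and the call was lost without any one of days 1, 3 or 5, where the shift was 2.82, 2.64 and 2.76. Acta1 stood at 1.60 (adjusted p = 0.297) and at -0.05 without day 7, and it was called with no filter on low counts (1.63, adjusted p = 3.93e-05). Having no filter left the Acta1 shift nearly as it was and moved its adjusted p, so that call depends on the filter. Myh8 stood at 2.46 (adjusted p = 0.267).

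**Figure D3:**
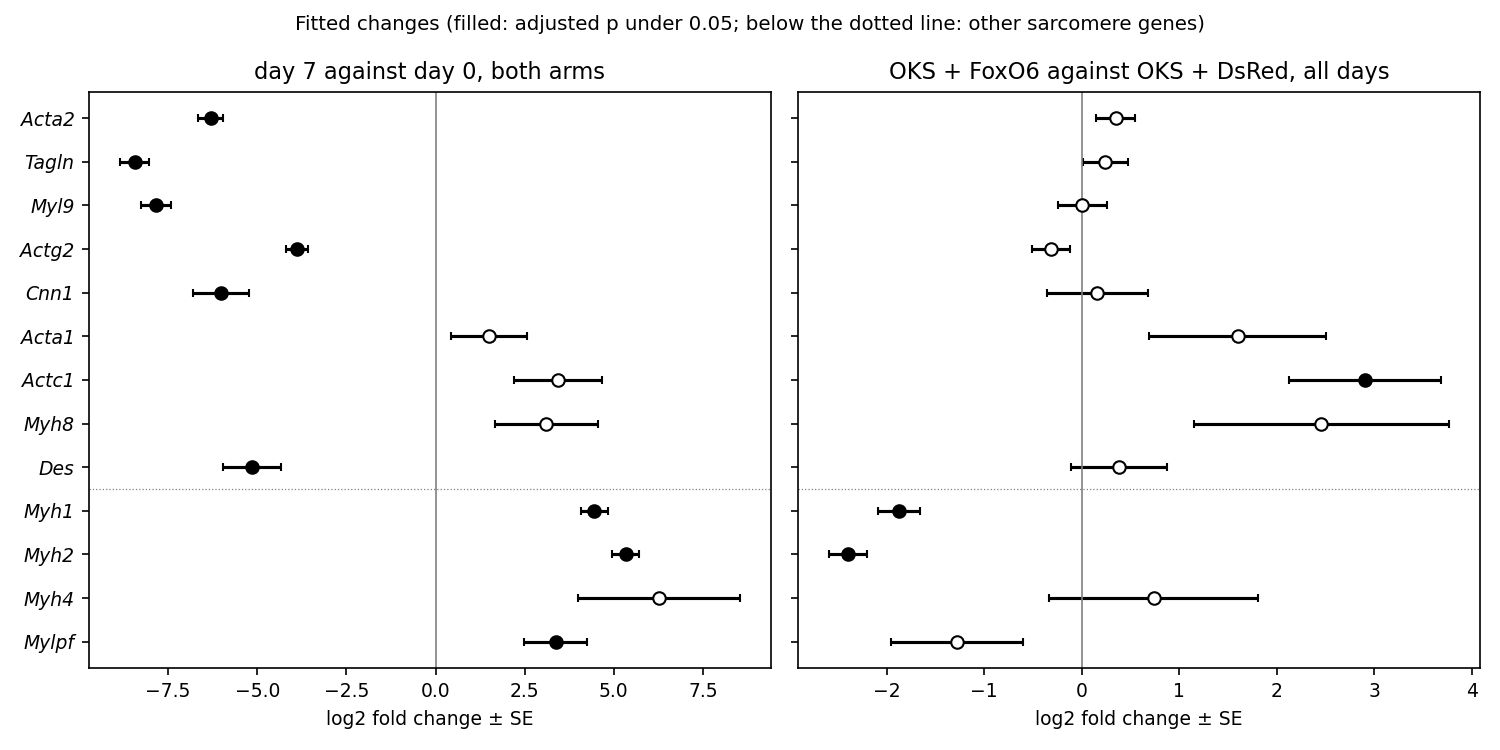
Fitted log2 fold changes with their standard errors for the members with 10 counts in any library and 4 other sarcomere genes, as day 7 against day 0 over both arms (left) and as OKS + FoxO6 against OKS + DsRed over all days (right). Filled points have an adjusted p under 0.05 (edgeR). The smooth muscle genes and Des lie between -3.88 and -8.44 on the left and between -0.31 and 0.38 on the right, and Myh1 and Myh2 lie above 0 on the left and below 0 on the right.

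Whether the difference between the arms changed along the days was tested as the product of arm and day. None of the 3 members tested passed, against 1.93% of all genes (1 at an unadjusted p under 0.05 with edgeR, and 0 called with DESeq2). Acta2 had a slope of 0.18 per day on the log2 scale (standard error 0.05, adjusted p = 0.11), which passed with no filter on low counts (0.17, adjusted p = 0.00704). With 10 counts in any library, Acta1 passed with a slope of 0.82 per day (0.17, adjusted p = 0.0262), where 1.07% of genes had a higher slope called. That slope was -0.04 without the 2 libraries of day 7, and 0.96 without day 0, where the call was lost too (adjusted p = 0.0975).

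Day by day, the 9 members whose TPM averaged at least 1 were counted as past 2-fold where log2(TPM + 1) differed by more than 1. Day 0 had 1 such member (17.0% of 15011 genes), day 1 had 4 (17.5%), day 3 had 5 (20.0%), day 5 had 4 (21.7%) and day 7 had 4 (24.8%). Actc1 was among them on every day and always higher in OKS + FoxO6, but at days 0 and 1 this is 2 and 3 reads against 0, and with CPM and a prior count of 2 it was not past 2-fold at day 0. Acta1 was higher in OKS + FoxO6 at days 1, 5 and 7 and lower at day 3, and its counting intervals reached both sides of a ratio of 1 on every day but day 7. Acta2 was on no day past 2-fold on this scale, yet its interval excluded a ratio of 1 at 3 days: taken as OKS + FoxO6 over OKS + DsRed, it was 0.752 on day 1 (0.647 to 0.872), 1.76 on day 3 (1.26 to 2.49) and 2.19 on day 7 (1.53 to 3.17). At day 7, 9.95% of the 2864 genes within 20% of the effective length of Acta2 were at least as high in this log2(TPM + 1) difference. The share of all genes whose interval excludes 1 was not computed. Actg2 was at a ratio of 0.485 at day 1 (0.343 to 0.679) and its interval included 1 on the other 4 days. Tagln was at 3.62 at day 3 (1.16 to 14.1), and its interval included 1 on the other 4 days.

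**Figure D4:**
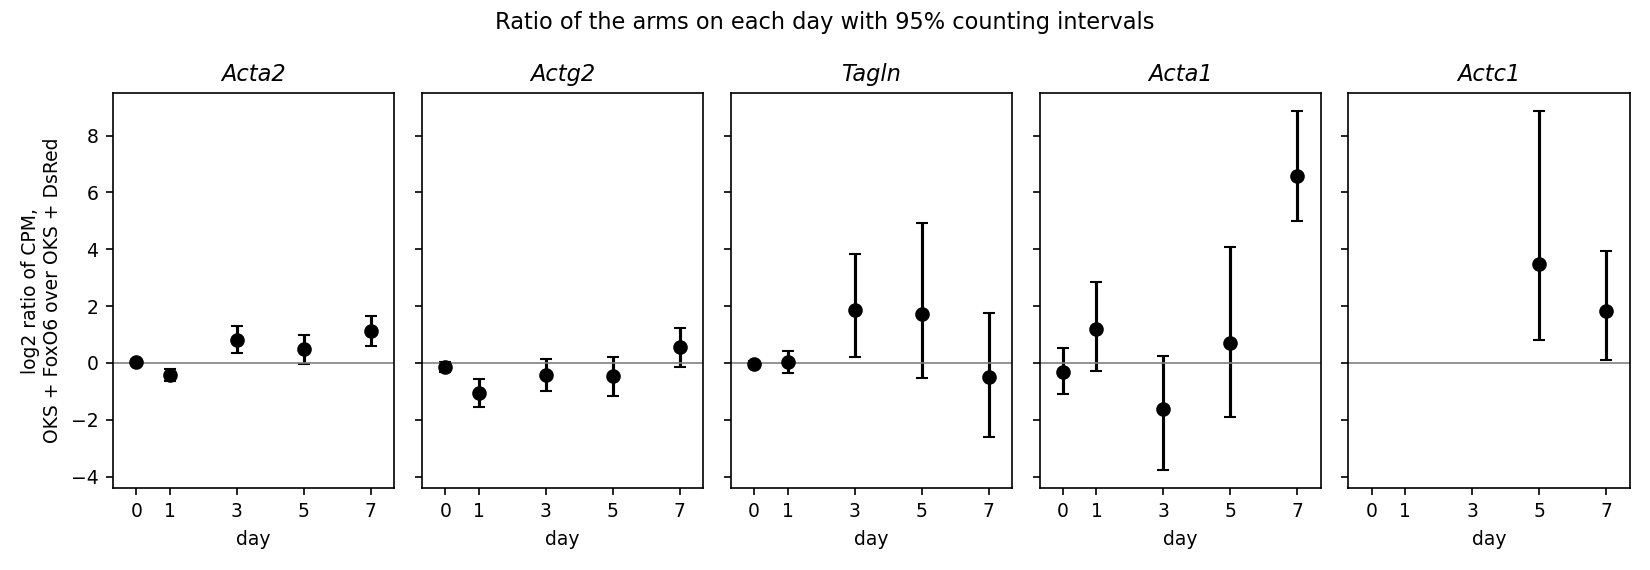
Log2 ratio of CPM, OKS + FoxO6 over OKS + DsRed, on each day for 5 members, with 95% counting intervals and no replicate error. Days with at most 3 reads in both libraries, or none in 1 of them, are left out. Acta2 and Tagln lie at 0 at day 0 within their intervals, and Acta1 at day 7 is the point farthest from 0, at a ratio of 94.7.

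Other genes of striated muscle were mostly below what this depth detects. Of 37 other sarcomere genes 2 passed the main filter, Myh1 and Myh2, the adult fast myosin heavy chains that neighbour Myh3 and Myh8 on chromosome 11. Both rose from day 0 to day 7, by 4.46 and 5.34 on the log2 scale (adjusted p = 2.43e-05 and 6.91e-06), and both were lower in OKS + FoxO6 over the days, with -1.88 and -2.41 (adjusted p = 0.000366 and 7.06e-05). Myh1 was at 6.29, 23.3, 83.2, 147.6 and 114 TPM in OKS + DsRed and at 2.23, 4.50, 17.0, 32.6 and 53.3 TPM in OKS + FoxO6. Myh2 was at 2.65, 5.99, 98.9, 120.07 and 102 TPM in OKS + DsRed and at 0.66, 1.93, 12.5, 21.7 and 25.4 TPM in OKS + FoxO6. The order of the arms for these genes was thus opposite to that of Myh8 at day 7, although 12.1% of the 50-base stretches of Myh8 transcripts also occur in other genes, mostly Myh2. With 10 counts in any library 8 of the 37 were tested and 3 rose by day 7, Myh1, Myh2 and Mylpf (fast regulatory light chain, 3.36, adjusted p = 0.0193), and none fell. Mylpf passed that filter through its day 7 libraries alone and so had to be higher there. Named after their values were seen, Mylpf had 66 reads at day 7 in OKS + DsRed, 10 in OKS + FoxO6 and at most 4 on other days, and Myh4 (an adult fast myosin) had 17.9 expected counts in OKS + FoxO6 at day 7 and at most 5.89 elsewhere. At most 3 reads in every library of OKS + FoxO6 were left for 25 of the 37 sarcomere genes, among them Tnnt3, Tnni2 and Tnnc2 at 0, and in OKS + DsRed for 24. Of 12 skeletal genes of excitation and energy supply, 2 were tested and Chrna1 (a muscle acetylcholine receptor subunit) fell by 2.44 from day 0 to day 7.

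Regulators of muscle were measured from their own list. Of 13 myogenic regulators found, 7 were tested, and none passed between day 0 and day 7. Mef2a was the highest of the list. Of 8 cardiac regulators 3 were tested, and Nppb, a natriuretic peptide gene, fell by 1.59 from day 0 to day 7 while none passed between the arms. Of 9 genes tested of the SRF pathway, 4 fell from day 0 to day 7, among them the targets Ctgf (-2.00) and Cyr61 (-1.97), and none rose. Of all genes tested, 9.96% were called lower at day 7. Ctgf was higher in OKS + FoxO6 over the days, by 1.40 (adjusted p = 0.00345), the only one of the 9 called, against 13.9% of all genes.

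Other smooth muscle and cytoskeletal genes were measured from lists of their own. Of 10 other smooth muscle genes tested, 7 fell from day 0 to day 7 and 1 rose, with a median of -2.21 on the log2 scale against 0.03 for all genes. Tpm2 (beta tropomyosin) was at -4.71, Cald1 (caldesmon) at -2.56 and Csrp1 at -2.09, while Sncg, a synuclein gene, rose. Tpm1, the highest of the list, went from 1280 to 227 TPM in OKS + DsRed and from 1081 to 298 TPM in OKS + FoxO6. Between the arms, Cald1 and Fhl2 were higher in OKS + FoxO6 and Sncg, Fhl1 and Csrp1 lower, with a median of -0.09 over the 10 against -0.02 for all genes. Of 17 nonmuscle contractile genes tested, 14 fell over time, with Cnn2 at -3.14, Actn1 at -2.55 and Myh10 (nonmuscle myosin heavy chain) at -2.39, and Myl12b rose. Their median of -1.09 was less far from 0 than those of the smooth muscle list and of the 3 members tested (-6.29), a difference that was not tested. Between the arms 3 of the 17 were lower in OKS + FoxO6, Tagln2, Myh10 and Flna, and none was higher. Of all 11028 genes tested, 13.9% were called between the arms, with 778 lower, and 9.96% were called lower at day 7 than at day 0. Myh11, the smooth muscle myosin heavy chain, was at 5.18 and 4.83 TPM at day 0 and at most 0.74 TPM later.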

How the data were processed

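Bulk RNA-seq of MEFs was measured in 10 libraries, 1 per arm and day, grouped by their titles. The authors aligned reads to GENCODE M13 with RSEM and bowtie2 and deposited raw expected counts per gene together with TPM values of the same alignments. The methods name a TruSeq kit and the labels a VAHTS kit. Expected counts of the series table and of the library files are identical for the 48476 shared genes. Libraries held 1208379 to 2225750 counts. Expected counts were rounded and fitted with edgeR 4.0.16 (R 4.3.3, TMM, filterByExpr by arm, day as a factor, Benjamini-Hochberg adjustment, threshold 0.05), and DESeq2 1.42.0 and limma 3.58.1 were alternatives. Days of an arm may come from 1 culture, so p-values describe these time courses. A count of 0 was set to 3 counts for folds against it, which have no interval. Differences per day used log2(TPM + 1), which understates changes of low genes. In simulated data with 200 of 11028 genes changed 4-fold, the arm shift recovered 200 (4 false calls), day 7 against day 0 189 (8) and the slope 75 (4). The simulated counts had the same dispersion (0.034) for all genes, no other day effect and no link between days of an arm. They therefore do not give the power or error rate in the real libraries. The members and lists were chosen with earlier results of these data known. Named genes are the members, Foxo6, the MyoD family, up to 3 genes per list and test by p with the highest of each list, and the 5 genes most like Acta1, Acta2 and Tagln. Python 3.11.15 with scipy 1.17.1 and matplotlib 3.10.9 gave intervals and figures. Genes of endothelium and macrophages are given with the observations. Coordinates are those of GENCODE M21. Some results between the arms are not reported here.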

Additional observations from a re-analysis of the deposited data

Results flagged for a closer look

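The slope of the difference between the arms along the days (edgeR, product of arm and day, in log2 per day) was called for 213 of 11028 genes, and with 10 counts in any library for 222 of 13184. Among the genes of the lists and the members, these were called. Acta1 had a slope of 0.82 (adjusted p = 0.0262, with 10 counts in any library), and of -0.04 without day 7. The 5 others were called with the main filter. Among fibroblast markers, Col1a2 had a slope of 0.36 (adjusted p = 0.00225) and Dcn of 0.24 (0.0293), so OKS + FoxO6 gained on OKS + DsRed with time. Cyr61, an SRF target, had a slope of 0.29 (adjusted p = 0.0179). The slope was negative for Egr1, an immediate early gene, at -0.28 (adjusted p = 0.0293), and for the pericyte marker Notch3, at -0.56 (0.0243).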

How the results depend on the processing

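Depth limits most members: Myh3 never passed 4 reads, and from day 3 on Myl9, Cnn1 and Des have at most 7. The day factor pairs the arms, and the fit with no day term is its unpaired alternative. Between day 0 and day 7 (3 members called), 7 were called with no filter on low counts, 6 with 10 counts in any library and 6 with limma on log2(TPM + 1). Leaving out 1 library gave 3 to 6 with the main filter, and 6 to 7 with 10 counts in any library. For day 1 against day 0 (3 called), no filter, 10 counts in any library and limma gave 7, 5 and 5. Leaving out 1 library gave 3 with the main filter, and 4 with 10 counts in any library. For the shift between the arms (0 called), the same 3 settings gave 2, 1 and 1. Leaving out 1 day gave 0 with the main filter, and 0 to 1 with 10 counts in any library. DESeq2, its size factors in edgeR and, for the shift, no day term left these counts as they were. For the slope, no filter gave 2, 10 counts in any library 1, and leaving out 1 day 0 to 1. The members past 2-fold at day 0 (1) were 2 with a pseudocount of 0.1 and 0 at a mean TPM of at least 5, those at day 1 (4) were 2 with CPM and a prior count of 2, and those at day 7 (4) were 2 at a mean TPM of at least 5. The log2 ratio of the sums at day 0 was -13.1 in OKS + DsRed and -10.3 in OKS + FoxO6 without the highest gene of each sum, and -6.82 and -7.11 with Des among the skeletal genes. At day 7 in OKS + FoxO6 it was 0.97 with summed CPM and -1.28 without the highest genes. With 10 counts in any library, leaving out 1 day or library turned some directions, and the cause was not tested. The shift ranged from -0.054 to 2.76 for Acta1, from -0.052 to 0.32 for Cnn1 and from -0.070 to 0.32 for Myl9, and limma gave -0.34 for Cnn1. The slope ranged from -0.044 to 0.96 for Acta1 and, with the main filter, from -0.040 to 0.24 for Actg2, with the lowest values without day 7. The day 7 change of Acta1 ranged from -3.46 (without OKS + FoxO6 day 7, adjusted p = 0.035) to 3.12 (without OKS + DsRed day 7, 0.000438), and the day 1 change of Actc1 from -0.90 (without OKS + FoxO6 day 1) to 1.60.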

Other observations

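Markers of cell types other than the fibroblast were measured beside the contractile genes. Of 5 endothelial markers 1 was tested: Tek rose by 1.49 on the log2 scale from day 0 to day 7 (adjusted p = 0.000652) and was higher in OKS + FoxO6 over the days by 0.96 (adjusted p = 0.0012). The list summed to 18.7 to 55.3 TPM in OKS + DsRed and to 28.8 to 104 TPM in OKS + FoxO6, with 3 of 5 at 3 reads or fewer throughout each arm. Of 5 macrophage markers 1 was tested and none passed, and the list summed to 14.1 to 55.8 TPM in OKS + DsRed and 18.0 to 29.0 TPM in OKS + FoxO6. Between the arms, the pericyte markers Cspg4 and Mcam were lower in OKS + FoxO6, with -1.197 and -1.18 on the log2 scale (adjusted p = 0.00471 and 0.0418). The fibroblast markers Dcn and Postn were higher there, by 1.15 and 0.69 (0.00859 and 0.0213), and Col3a1 was lower, with -0.64 (0.0197). Cdh1, Krt8 and Epcam were lower there, with -3.12, -2.06 and -1.86.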
